A study of Rattus norvegicus with 30 samples.

Results

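Rat hepatocytes exposed to 5000 µM acetaminophen for 24 h were compared with hepatocytes given vehicle for the same time. The comparison rests on 10 of the 30 arrays of the series, 5 at 5000 µM and 5 with vehicle, chosen by their titles. Per the labels' protocols the cells were purchased frozen hepatocytes of male Sprague Dawley rats, thawed onto collagen-coated plates under a Matrigel overlay, and dosed on the third day of culture. The vehicle was 1% DMSO, and the dosing solutions of the compound were made up in DMSO too. Each array held the RNA of 1 well, and the wells of a group are described as independent cultures. The p-values therefore speak of variation among wells, not among animals. The other arrays compared here, 5 in each group, are those of 500 µM at 24 h, 5000 µM at 48 h and vehicle at 48 h. The 5 arrays of 500 µM at 48 h were also in the fit, which estimated the spread behind each SE and p-value over all 30 arrays. Wells were looked at under a light microscope for cell death before harvest, and the outcome is not given in the sources used here. In whole wells, fewer cells of a type and less RNA per cell cannot be told apart.

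Acetaminophen is an analgesic that hepatocytes clear mainly by joining it to glucuronic acid or sulfate. A smaller part is oxidised by cytochrome P450 enzymes, CYP2E1 foremost, to a reactive quinone imine that is trapped by glutathione. When glutathione runs short the quinone imine binds to proteins, mitochondria are damaged and hepatocytes can die. The liver cells concerned also break down amino acids and purines, make urea, bile acids and plasma proteins, and store and release glucose and fat.

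Levels are MAS5 signals, the linear brightness of a probe set after the authors' scaling of each array. A change is the mean log2 signal at 5000 µM minus that in vehicle, given with its standard error (SE). A gene is said to rise or fall where its Benjamini-Hochberg adjusted p in limma was under 0.05 over the 8531 genes tested. By this rule 3252 genes changed, which is 38.1% of those tested. Of these 1583 rose (18.6%) and 1669 fell (19.6%), while 36 rose (0.422%) and 92 fell (1.08%) by at least 2-fold. All 5 arrays at 5000 µM lay above all 5 vehicle arrays for 1006 genes (11.8%) and below them for 1046 (12.3%). After each array was centred on its median, 809 genes were higher and 1745 lower. Centring moved the median over all genes to -0.07, against -0.0027 without it. These shares are the background for every gene list below.

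The 5000 µM arrays also differed from the vehicle arrays in RNA quality. The β-actin control probe sets gave a 3′ signal over 5′ signal, as a log2 ratio, of 1.76, 1.29, 1.31, 1.21 and 1.28 at 5000 µM and 1.99, 1.96, 1.90, 1.54 and 1.49 in vehicle. Its mean was 1.37 ± 0.22 at 5000 µM and 1.78 ± 0.24 in vehicle (SD, n = 5 each), a difference of -0.41 (exact permutation test, two-sided, p = 0.0476). Replicate 1 at 5000 µM lay among the vehicle arrays, and the other 4 lay below all 5 of them. Fitted to the arrays below the widest gap in this ratio alone, 4 at 5000 µM and 2 with vehicle, limma called 2033 genes, 1944 of them with the direction they had over all arrays. With the ratio as a covariate over all arrays limma called 2602 genes, 2242 of them with the direction they had without it.

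The largest rise was that of Hamp, which encodes hepcidin, the liver hormone that lowers the release of iron into plasma. Hamp had signals of 8112, 11416, 10583, 6893 and 9309 at 5000 µM, against 2470.4, 1192, 1882, 1975 and 1503 in vehicle. Every treated well was above every vehicle well, with geometric means 5.21-fold apart (log2 change 2.38 ± 0.18, limma adjusted p = 5.01e-12). Hexim1, whose protein holds the transcription elongation factor P-TEFb in an inactive complex, gave 11637, 10065, 13382, 14584 and 12595 at 5000 µM and 4210.0, 4007, 4288, 4342 and 4719 in vehicle. Its groups stood well apart (1.52 ± 0.09). Serpine2, a secreted inhibitor of serine proteases, read 1762, 1792, 1719, 1619.6 and 1724 at 5000 µM and 556, 496, 747, 569 and 539 in vehicle (1.58 ± 0.10), with a wide gap between the groups.

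Inhbe, the activin βE subunit that the liver secretes, had the largest fall. Its signals were 761, 453, 467, 537 and 556 at 5000 µM, against 3766, 4342, 3520.2, 3898 and 4708 in vehicle. The vehicle wells were on average 7.39-fold brighter and the groups did not overlap (log2 change -2.89 ± 0.12, limma adjusted p = 1.69e-18). Car5a, the mitochondrial carbonic anhydrase that supplies bicarbonate for urea and glucose synthesis, gave 1861, 1369, 1695, 1286 and 1342 at 5000 µM and 5506, 7234, 5645, 5951 and 6138 in vehicle, again with no overlap (-2.02 ± 0.10). Gucy2c, a receptor guanylate cyclase, followed the same course with 1359, 1339, 973, 1179 and 1025 at 5000 µM and 4441, 5199, 4221, 4193 and 4598 in vehicle (-1.96 ± 0.10).

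**Figure D1:**
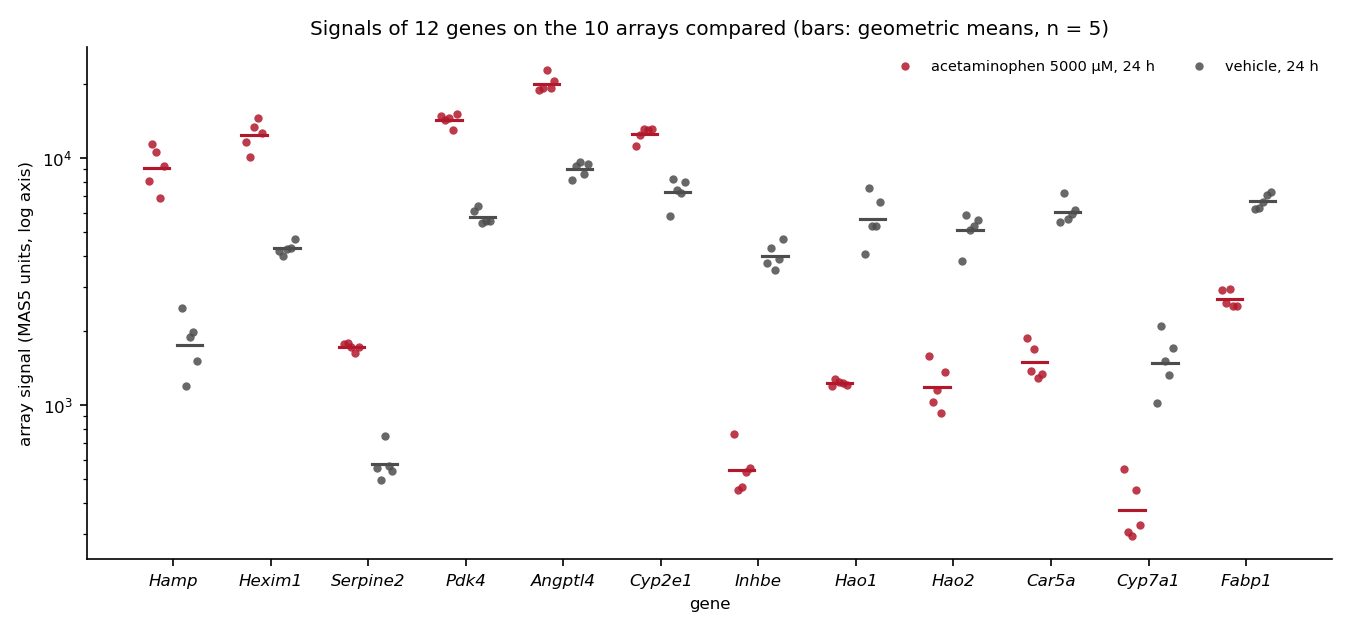
Array signals (MAS5 units, log axis) of 12 genes, each point 1 array, acetaminophen 5000 µM in red and vehicle in grey at 24 h, with bars at the geometric means of 5 arrays. For each of the 12 genes the 5 red points lie wholly above or wholly below the 5 grey ones, from a rise of 2.38 for Hamp to -2.89 for Inhbe on the log2 scale.

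The 20 largest rises also held Stmn1, the microtubule-destabilising protein stathmin (1.27 ± 0.11), Pkib, an inhibitor of protein kinase A (1.53 ± 0.17), the tyrosine phosphatase Ptpn18 (1.41 ± 0.12) and Hilpda, a lipid droplet protein that inhibits fat breakdown (1.18 ± 0.11). A second Ptpn18 probe set rose less, by 0.69. Cib2, Sh3gl3, Gpr108, Atp23, Apeg3, Ocel1, Abhd15 and LOC100912031 were the others not described below, and a second probe set of LOC100912031 was at 0.35 (limma adjusted p = 0.34 over all probe sets). Among the 20 largest falls were Poteml2 (-2.47 ± 0.10), the olfactory receptor gene Olr59 (-2.41 ± 0.35) and Steap4, a metalloreductase (-1.66 ± 0.23). Lrmda, Clec14a, Sult6b2, Znf750, Asb5 and LOC100912629 fell with log2 changes of -1.72 to -1.51. Clec14a, Lrmda, Znf750, Olr59, Sult2a6, Scd2 and Cyp7a1 had mean signals at 5000 µM under 469.2, the geometric mean of the dimmest tested gene, so the size of their falls depends on background. The same holds for the rises of Hist4h4, Pkib, Sh3gl3 and Gpr108, whose vehicle means lay under that level. Among genes named below it also holds for the falls of Ggt1, Hsd17b2, Slco1a1 and Sult1c2 and for the rises of H1f4, Igfbp2 and Pidd1.

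Among the enzymes that oxidise acetaminophen Cyp2e1 rose and others fell. Of 16 genes of acetaminophen oxidation tested, 2 rose (1 without vehicle replicate 2 or 5000 µM replicate 3) and 6 fell, with a median change of -0.10. Cyp2e1 had signals of 11219, 12435, 13167, 13041 and 13137 at 5000 µM, against 5806, 8258, 7461, 7221 and 7989.8 in vehicle. Its groups did not overlap and it rose by 0.79 ± 0.11, while Cyp3a18 (-0.58 ± 0.06), Cyp2d2 (-0.52 ± 0.07) and Cyp2d4 (-0.45 ± 0.10) fell. Cyp1a2, which also oxidises the drug, had 9468 ± 481 at 5000 µM and 9218 ± 821 in vehicle (SD, n = 5 each), a change of 0.04 ± 0.12 that did not pass the test.

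Conjugation genes moved one way where they moved. In the glucuronidation and sulfation list 9 of 15 fell and 0 rose (median -0.21), with 0 higher also at an unadjusted p under 0.05 in limma, and 1 rose without vehicle replicate 1. The glucuronosyltransferase Ugt2b1 read 23521, 17646, 18271, 23583 and 21502 at 5000 µM and 40888, 47744, 53259, 43922 and 48325 in vehicle, a clear separation (-1.17 ± 0.10). Ugt2b10 (-1.09 ± 0.07), Ugt2a1 (-0.70 ± 0.20) and the sulfotransferases Sult2a6 (-2.12 ± 0.23), Sult1c2 (-0.93 ± 0.16) and Sult1b1 (-0.59 ± 0.07) fell as well. Ugp2, which makes the UDP-glucose from which glucuronic acid donors are formed, fell by a smaller amount (-0.27 ± 0.07). Sult1a1, a main phenol sulfotransferase, was at 0.01 ± 0.08 and did not pass.

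Glutathione genes were lower in part. Of 35 tested, 15 fell and 1 rose, or 3 without 5000 µM replicate 2 (median -0.11). Ggt1, which splits extracellular glutathione, fell (-0.72 ± 0.14), and Slc7a11, the cystine importer, (-0.58 ± 0.10). The transferases Gsta3 (-0.67 ± 0.05), Gstm4 (-0.67 ± 0.05), Gstm3 (-0.56 ± 0.07) and Gstz1 (-0.46 ± 0.07) and the microsomal Mgst2 (-0.40 ± 0.08) and Mgst3 (-0.38 ± 0.06) fell beside the peroxidases Gpx1 (-0.34 ± 0.05) and Gpx2 (-0.36 ± 0.08). Gss, which completes glutathione synthesis, fell (-0.25 ± 0.06). Gclc, the catalytic subunit of the first and rate-limiting step, was at -0.19 ± 0.06, and its call was lost with the β-actin ratio as a covariate, when its probe sets were averaged, and without vehicle replicate 3 or 5000 µM replicate 4.

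Of 38 NRF2 targets and antioxidant genes, 3 rose and 14 fell (median -0.05). After median centring 0 rose and 14 fell, with the β-actin ratio as a covariate 0 rose and 11 fell, and with probe sets averaged 6 rose. NRF2 is the transcription factor that electrophiles and oxidants switch on. Maff, a small partner protein of NRF2, fell (-0.93 ± 0.11), the aldo-keto reductase Akr1b8 (-0.84 ± 0.13) and the efflux pump Abcc3, which carries glucuronides out of hepatocytes, (-0.88 ± 0.10). Hmox1, heme oxygenase 1, had 21307, 27053, 20438, 18008 and 22860.4 at 5000 µM and 28599, 24395, 30055, 26771 and 27219 in vehicle (-0.33 ± 0.08). The ranges overlapped, since the highest treated well lay above 2 vehicle wells. Nqo1, a quinone reductase, had 40065 ± 1562 at 5000 µM and 36955 ± 3941 in vehicle (SD, n = 5 each), and its change of 0.12 ± 0.07 did not pass.

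Other cytochrome P450 genes and further drug-handling enzymes fell more often than they rose. In the list of other P450 enzymes 12 of 24 fell and 3 rose (median -0.33). Cyp39a1, an oxysterol hydroxylase, fell (-1.17 ± 0.20), the fatty acid hydroxylases Cyp4f1 and Cyp4f4 (-0.94 ± 0.09 and -0.79 ± 0.08), and Cyp2c11, the main male-specific P450 of rat liver, (-0.70 ± 0.12). Among hydrolases, flavin monooxygenases and other oxidases 15 of 27 fell and 1 rose (median -0.22). These falls included Akr1c1 (-1.45 ± 0.12), the deacetylase Aadac (-1.06 ± 0.09), aldehyde oxidase Aox1 (-0.77 ± 0.09), the carboxylesterase Ces1e (-0.70 ± 0.11) and Fmo1 (-0.58 ± 0.10). Nr1i3, the xenobiotic receptor CAR, fell (-0.62 ± 0.09).

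Genes of P-TEFb control and of chromatin stood out among the rises. In the list of P-TEFb, its regulators, histones and histone deacetylases 11 of 26 rose and 2 fell (median 0.08), and 9 members had all 5 treated arrays above all 5 vehicle arrays. Besides Hexim1, the histone genes Hist4h4 (1.62 ± 0.20), H2ax (1.25 ± 0.10), H1f4 (0.83 ± 0.15), H2az1 (0.73 ± 0.05) and H1f2 (0.72 ± 0.08) rose. The H2ax histone, which is phosphorylated at DNA breaks, had 1912, 2108, 2322, 2108 and 1804 at 5000 µM and 890.3, 763, 837, 1059.8 and 772 in vehicle. For Hist4h4, a histone H4 gene, the signals were 721, 1582, 1028, 1459 and 1251 at 5000 µM and 421, 244, 370.2, 455 and 444 in vehicle, and replicate 1 was the lowest treated array although still above every vehicle array. Supt4h1, a subunit of an elongation factor that works with P-TEFb, rose by 0.54 ± 0.07.

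Hdac1, a histone deacetylase, needs a separate description. It had 794, 1887, 1944, 2059 and 2083 at 5000 µM and 591, 641, 903, 1075 and 899 in vehicle, so 1 treated array lay within the vehicle range and the other 4 above it (1.05 ± 0.23). A second Hdac1 probe set rose by 0.50. Its call was lost with the β-actin ratio as a covariate.

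Enzymes that break down amino acids were lower in large part. In the list for phenylalanine, tyrosine, tryptophan and histidine 16 of 21 fell and 0 rose (0 also at an unadjusted p under 0.05 in limma), with a median of -0.48 against -0.0027 for all tested genes, and 14 members had all treated arrays below all vehicle arrays. Along the kynurenine branch of tryptophan breakdown Tdo2, the entry enzyme, fell (-0.51 ± 0.07), Afmid (-0.86 ± 0.09), Kmo (-1.17 ± 0.12), Kynu (-0.37 ± 0.09), Haao (-1.48 ± 0.10) and Qprt, which leads on to NAD, (-1.08 ± 0.05). Haao gave 3749.8, 3247, 3712, 2506 and 3033 at 5000 µM and 7057, 10251, 9079.7, 9151 and 9609 in vehicle. The groups were far apart. The side branch enzymes Kyat1 (-0.48 ± 0.08) and Aadat (-0.24 ± 0.06) fell less, and Acmsd was at 0.11 ± 0.13 and did not pass.

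Tyrosine and histidine breakdown showed the same direction with gaps. Hgd, homogentisate dioxygenase, gave 1587, 1623, 1687, 1479 and 1626 at 5000 µM and 3686, 3639.6, 3613, 3593 and 3914 in vehicle, with no overlap (-1.21 ± 0.06). Fah (-0.71 ± 0.06) and Gstz1, the neighbouring steps, fell, whereas Hpd, which forms homogentisate, was at 0.02 ± 0.07 and the first enzyme Tat at -0.23 ± 0.10, neither of which passed. For histidine, the ammonia lyase Hal fell (-1.11 ± 0.09), urocanase Uroc1 (-0.46 ± 0.09) and Ftcd, which passes the formimino group to folate, (-0.89 ± 0.10). Ddc, the aromatic amino acid decarboxylase, fell (-0.97 ± 0.11) and the monoamine oxidase Maob (-0.44 ± 0.06).

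For lysine, glycine, proline, creatine and branched-chain amino acids 18 of 33 fell and 1 rose (median -0.27). Aass, the first enzyme of lysine breakdown, read 3175, 3012, 2659, 1755 and 2524 at 5000 µM and 6538, 7293, 7124, 6814 and 7051 in vehicle, a wide separation (-1.44 ± 0.12), and Dhtkd1, further down the same route, fell (-0.96 ± 0.09). The glycine cleavage genes Gldc (-1.11 ± 0.16), Amt (-1.03 ± 0.07) and Gcsh (-0.33 ± 0.06) fell, as did Sardh, sarcosine dehydrogenase (-0.87 ± 0.11), Shmt1 (-0.74 ± 0.08) and Gamt, the last enzyme of creatine synthesis (-0.77 ± 0.06). Aldh4a1, of proline breakdown, fell (-0.74 ± 0.10). Of the branched-chain dehydrogenase, Bckdha fell (-0.47 ± 0.08) while Bckdhb was at -0.05 ± 0.09 and Dbt at 0.25 ± 0.11, neither past the test.

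**Figure D2:**
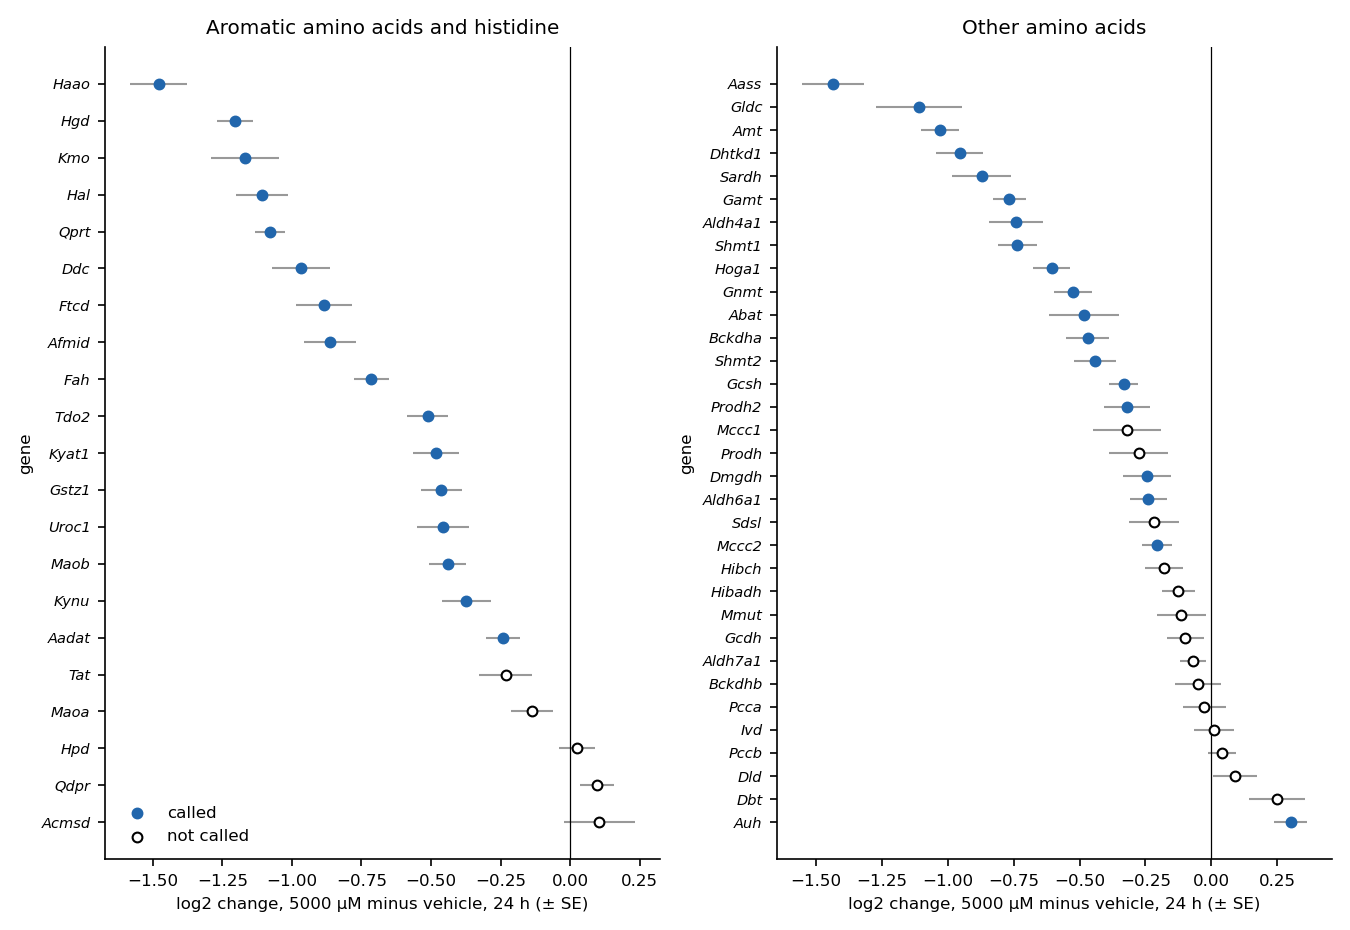
Log2 change (5000 µM minus vehicle at 24 h, bars ± SE) of the 21 tested genes of aromatic amino acid and histidine breakdown (left) and the 33 of other amino acids (right), filled where called. In the left panel 16 genes were called and all of these lie left of 0, and in the right panel 18 lie left of 0 and 1 right of it.

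Sulfur, methyl and choline metabolism was lowered in part. Of 22 genes 12 fell and 3 rose (median -0.19). Chdh, which oxidises choline to betaine, fell (-1.04 ± 0.09), Pemt, which methylates phosphatidylethanolamine, (-0.98 ± 0.10), and Csad, which leads from cysteine to taurine, had 3198 ± 347 at 5000 µM and 6350.2 ± 259.5 in vehicle (SD, n = 5 each) and fell too. Cth, which makes cysteine from cystathionine, fell (-0.55 ± 0.06), Mat1a, the liver enzyme that makes S-adenosylmethionine, (-0.27 ± 0.08) and Gnmt, which consumes it, (-0.52 ± 0.07). Within sulfide oxidation the directions were mixed, since Ethe1 fell (-0.58 ± 0.06) and Suox, sulfite oxidase, rose (0.55 ± 0.08).

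Around the urea cycle 11 of 23 fell and 3 rose (median -0.12). Otc, which joins carbamoyl phosphate to ornithine, gave 2186, 1404, 2167, 2359.5 and 2369.6 at 5000 µM and 2483, 4507, 3499, 3918 and 4279.7 in vehicle (-0.83 ± 0.14). The treated wells were lower throughout, while Cps1, which makes carbamoyl phosphate, had 52578 ± 3253 at 5000 µM and 57479 ± 6858 in vehicle (SD, n = 5 each) and a change of -0.12 ± 0.08 that did not pass on its brightest probe set. A second, bright Cps1 probe set fell (-0.73 ± 0.08, limma adjusted p = 4.81e-08 over all probe sets), so the Cps1 probe sets disagree. With the β-actin ratio as a covariate 7 genes of the urea cycle list fell. Agmat (-0.85 ± 0.09), the alanine aminotransferase Gpt (-0.61 ± 0.13) and Glud1 (-0.31 ± 0.05) fell. Gls2, the liver glutaminase (0.63 ± 0.11), Oat, ornithine aminotransferase (0.48 ± 0.11), and the cationic amino acid carrier Slc7a2 (0.75 ± 0.16) rose.

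The peroxisomal oxidases of glycolate and related acids fell strongly. Hao1, glycolate oxidase, had 1199, 1280.0, 1238, 1225 and 1206 at 5000 µM, against 4099, 7534, 5323, 5305 and 6649 in vehicle. Its treated wells were nearly alike, and its vehicle wells were 4.60-fold brighter on average (-2.20 ± 0.13). Hao2, which oxidises longer hydroxy acids, followed with 1577, 1028, 1152, 933 and 1356 at 5000 µM and 3849.6, 5897, 5134, 5289.8 and 5593 in vehicle (-2.10 ± 0.12). Agxt (-0.31 ± 0.06) and Grhpr (-0.21 ± 0.05), which remove glyoxylate, fell much less. Xanthine dehydrogenase Xdh (-0.89 ± 0.09) and urate oxidase Uox (-0.55 ± 0.07), the last steps of purine breakdown in the rat, fell too. The peroxisome as a whole did not follow, since in the glyoxylate and peroxisome list 11 of 30 fell and 6 rose. Among these rises were Pex11a, which divides peroxisomes (0.61 ± 0.05), Abcd3 (0.43 ± 0.05) and Pex19 (0.35 ± 0.08). Pyrimidine breakdown was represented by Dpys, with 2250.4, 1733, 2076, 2177 and 1859.6 at 5000 µM and 4512, 7156, 6038, 5969 and 7114 in vehicle (-1.60 ± 0.10), and by the next enzyme Upb1 (-0.71 ± 0.08), both lower without overlap.

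Sugar metabolism showed falls of fructose, glycogen and pyruvate kinase genes beside a few rises. Of 35 genes 12 fell and 5 rose (median -0.10). Tkfc, which phosphorylates the glyceraldehyde made from fructose, fell (-1.69 ± 0.13) and a second probe set of it was at -0.24, while Khk, fructokinase, fell (-0.73 ± 0.07). Gys2, the liver glycogen synthase, read 4736, 4160.0, 3004, 3194 and 3192 at 5000 µM and 8618, 9087, 9485, 9478 and 11254 in vehicle (-1.41 ± 0.14), and its groups were clearly apart. Glycogen phosphorylase Pygl (-0.43 ± 0.05), the glucokinase regulator Gckr (-0.73 ± 0.08) and the pyruvate kinase Pklr (-1.13 ± 0.12) fell. Txnip, which curbs glucose uptake and binds thioredoxin (0.96 ± 0.05), Ldhb, a lactate dehydrogenase subunit (0.83 ± 0.08), and Gpd2 (0.47 ± 0.11) rose.

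Fatty acid oxidation genes rose more often than they fell, with named exceptions. In this list, which holds many targets of the fatty acid receptor PPAR-alpha, 17 of 46 rose and 7 fell (median 0.13). Pdk4, a kinase that shuts pyruvate out of the citrate cycle, gave 14854, 14246, 14479, 13025 and 15149 at 5000 µM and 6086, 6388, 5459, 5545 and 5569 in vehicle (1.31 ± 0.08). Angptl4, a secreted inhibitor of lipoprotein lipase, gave 18802, 19219, 22679, 19153 and 20489 at 5000 µM and 8127, 9335, 9650.1, 8598 and 9483 in vehicle (1.15 ± 0.06). Both had well separated groups. The carnitine route rose in several parts, with Cpt1a (0.78 ± 0.10), Crot (0.75 ± 0.05), Crat (0.57 ± 0.10), the carnitine importer Slc22a5 (0.66 ± 0.06) and the mitochondrial carrier Slc25a20 (0.34 ± 0.08).

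Against these, Fabp1, the liver fatty acid-binding protein, fell, with 2913, 2601, 2950.4, 2511 and 2528 at 5000 µM and 6248, 6285, 6630.0, 7089 and 7275 in vehicle (-1.31 ± 0.06). Acox2, the peroxisomal oxidase of branched chains and bile acid precursors, fell (-1.45 ± 0.10), and Vnn1, pantetheinase, (-0.61 ± 0.07). Hadha, Acaa2, Ehhadh and Hsd17b4, enzymes of the oxidation spiral itself, were at -0.02 ± 0.07, 0.003 ± 0.07, -0.10 ± 0.12 and 0.01 ± 0.06, and none of these 4 passed. The rises were spread unevenly, with Eci1 (0.46 ± 0.06), Eci2 (0.56 ± 0.05) and Acadl (0.32 ± 0.05) among the enzymes of the spiral that passed.

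The 2 doses gave different patterns for these genes. At 500 µM against vehicle 29 of 46 rose and 0 fell in limma (1 was lower at an unadjusted p under 0.05), beside 2.86% of all genes called (1.65% higher and 1.21% lower). That comparison shares its vehicle arrays with the one at 5000 µM. In the direct comparison of 5000 µM with 500 µM 21 members were lower and 8 higher at 5000 µM, beside 14.3% of all genes lower and 16.8% higher. Fabp1 had a mean signal of 6705 ± 465 in vehicle, 9415 ± 576 at 500 µM and 2701 ± 214 at 5000 µM (SD, n = 5 each). It was thus highest at the lower dose and lowest at the higher dose (5000 minus 500 µM -1.80 ± 0.06, limma adjusted p = 2.1e-20). For Ehhadh the means were 1957 ± 312 in vehicle, 4016 ± 723 at 500 µM and 1808 ± 177 at 5000 µM (-1.14 ± 0.12 for 5000 minus 500 µM), and for Cpt1a 5795 ± 1303, 6115 ± 430.3 and 9805 ± 546 in the same order of doses (0.68 ± 0.10), which was highest at 5000 µM.

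**Figure D3:**
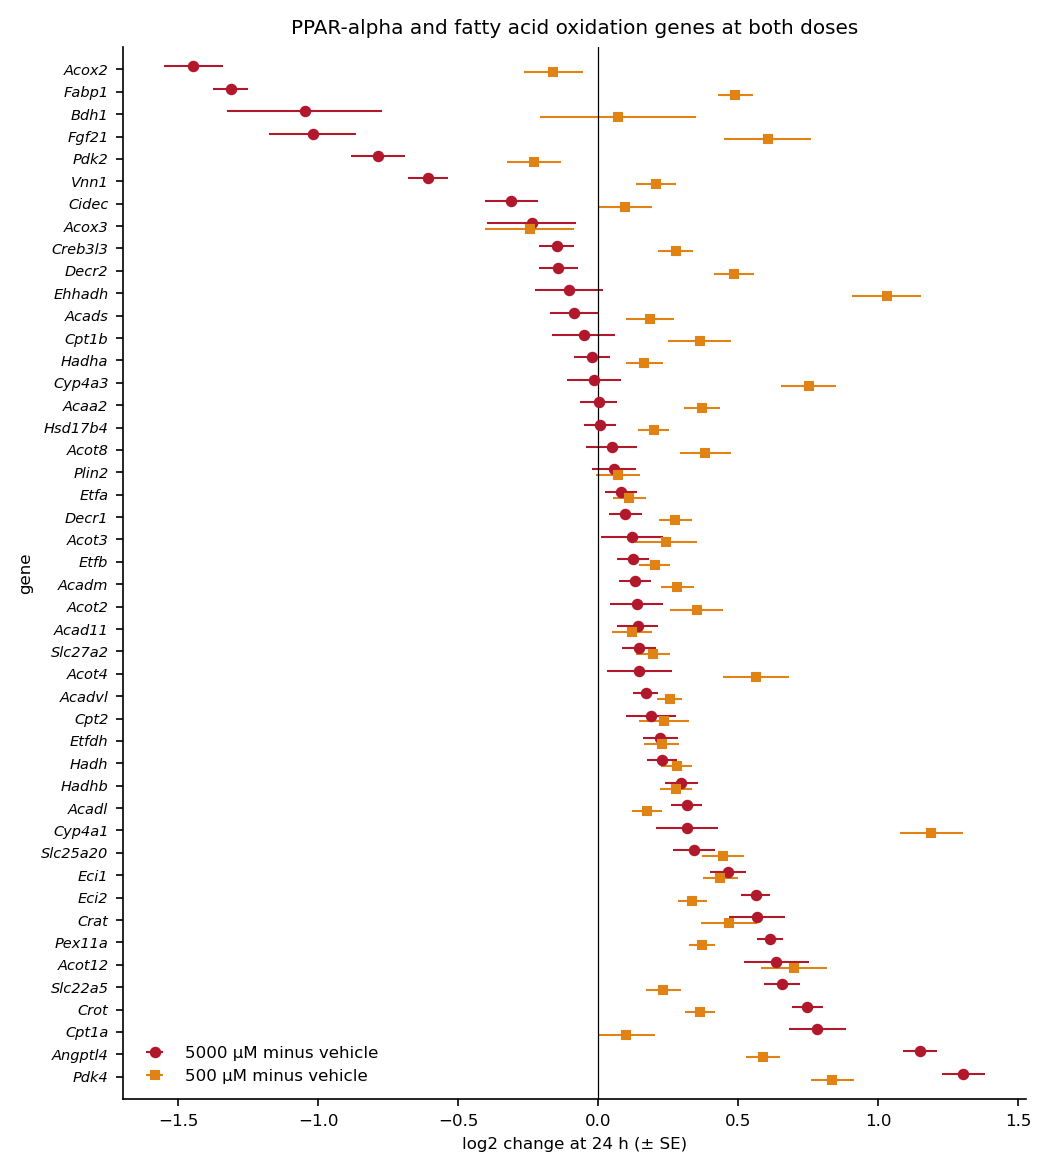
Log2 change against vehicle at 24 h (bars ± SE) of the 46 tested PPAR-alpha and fatty acid oxidation genes, at 5000 µM (red circles) and 500 µM (orange squares), which share the vehicle arrays. The squares lie right of 0 for most genes, while the circles run from a fall of 1.45 for Acox2 to 1.31 for Pdk4.

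Lipid synthesis genes fell in part. In fatty acid and triglyceride synthesis 15 of 30 fell and 2 rose (median -0.21). Srebf1, the transcription factor that drives this route (-0.66 ± 0.11), Nr1h3, the oxysterol receptor LXR-alpha (-0.99 ± 0.08), Fasn (-0.71 ± 0.13), Fads1 (-0.68 ± 0.13), Thrsp (-0.77 ± 0.12) and Pnpla3 (-0.98 ± 0.19) fell, and Elovl2, an elongase of polyunsaturated fatty acids, rose (0.63 ± 0.12). Scd2, a desaturase, fell (-2.04 ± 0.17) on its brightest probe set, while a second was at -0.06, and the call was lost when its probe sets were averaged. In cholesterol synthesis and handling 16 of 28 fell and 2 rose (median -0.35), with Fdft1 (-0.52 ± 0.07), Insig1 (-0.43 ± 0.08), Sqle (-0.36 ± 0.08), Msmo1 (-0.35 ± 0.09) and Dhcr7 (-0.38 ± 0.10) among the falls. Apoa5 (-0.72 ± 0.07), Apoc4 (-0.68 ± 0.07) and Lcat, which esterifies cholesterol in plasma (-0.65 ± 0.08), fell as well, while Abcg5, which exports sterols into bile, rose (0.49 ± 0.14).

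Bile acid synthesis and the carriers of the basolateral and canalicular membranes were lower in large part. Of 32 genes 19 fell and 4 rose (median -0.56). Cyp7a1, the rate-limiting enzyme, had 553, 306, 296, 452 and 326 at 5000 µM and 1017, 2088, 1503, 1321 and 1709 in vehicle (-1.99 ± 0.19), apart in every well. Its mean at 5000 µM was below the geometric mean signal of the dimmest tested gene. Further along the pathway Cyp8b1 (-0.72 ± 0.10), Akr1d1 (-1.01 ± 0.16), Acox2, Slc27a5 (-0.62 ± 0.13) and Baat, which joins bile acids to taurine and glycine (-0.92 ± 0.14), fell, and Cyp27a1 fell less (-0.34 ± 0.06). Amacr, a racemase that precedes Acox2, rose (0.47 ± 0.07).

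Among the carriers, Slc10a1, the sodium-dependent bile acid importer, read 5029.8, 3875, 4528, 5226 and 4498 at 5000 µM and 8883, 9133, 9103, 9768 and 10435 in vehicle (-1.04 ± 0.11). Its groups were separate. Abcb11, the bile salt export pump, read 21001, 17491, 12431, 12968 and 14572 at 5000 µM and 27438, 28374, 28376, 26175 and 28699 in vehicle (-0.85 ± 0.10). The anion importers Slco1a4 (-1.42 ± 0.18), Slco2a1 (-1.37 ± 0.11), Slco1b2 (-0.84 ± 0.10) and Slco1a1 (-0.61 ± 0.13) fell with them. Slco2b1 fell (-1.24 ± 0.13) on its brightest probe set, while a second was at -0.13 (limma adjusted p = 0.609 over all probe sets).

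**Figure D4:**
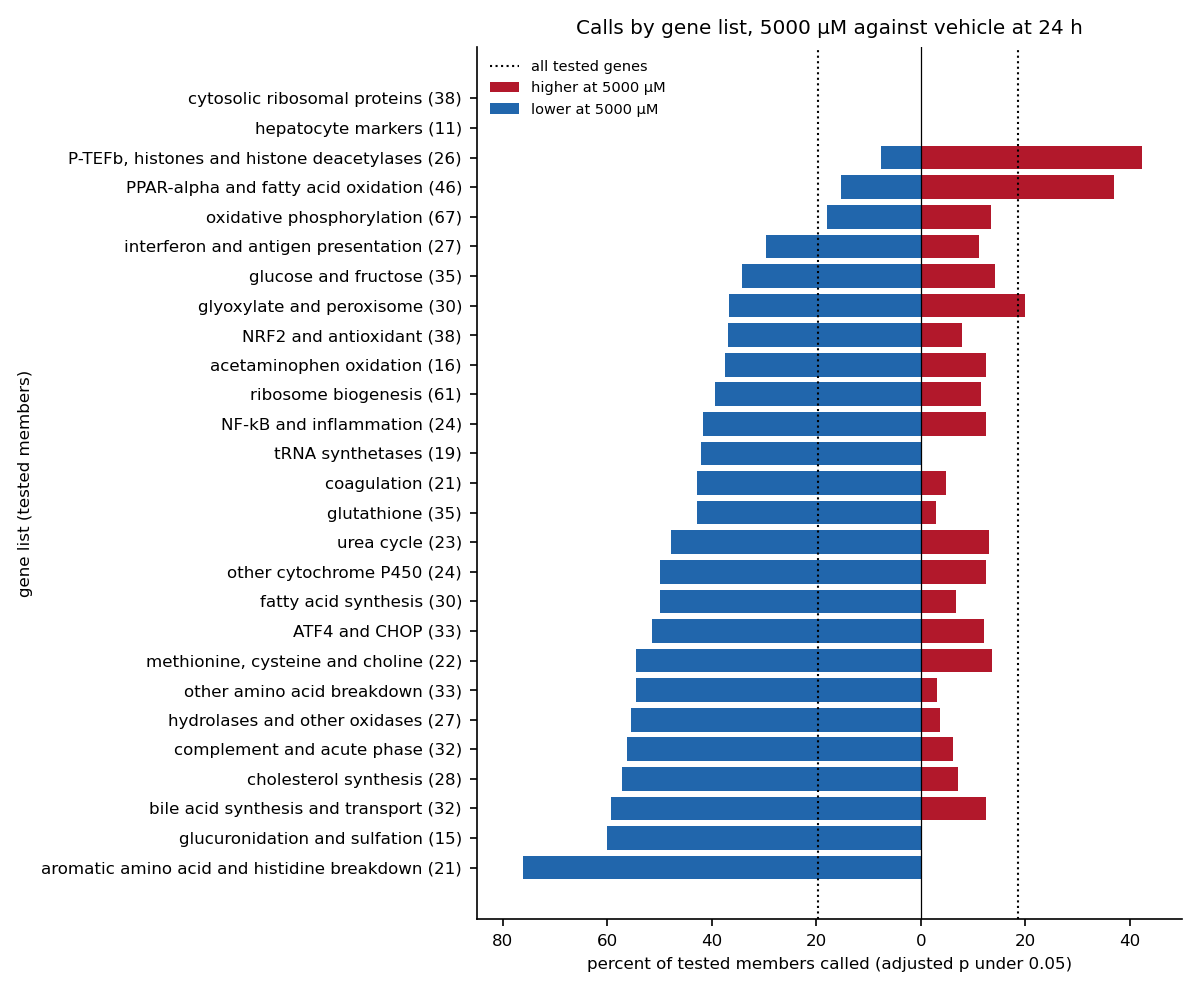
Percent of the tested members of 27 gene lists that were called lower (blue, to the left) or higher (red, to the right) at 5000 µM against vehicle at 24 h, with the number tested in brackets and dotted lines at the shares of all tested genes, 19.6% lower and 18.6% higher. Aromatic amino acid and histidine breakdown has the longest bar to the left, and the P-TEFb, histone and histone deacetylase list the longest to the right. The 27 lists are a selection from 53, so the balance of bars is not that of all lists. Lists not shown include p53 targets (37.5% higher, 16.7% lower), mitochondrial ribosome (31.0% and 14.1%) and lysosome and autophagy (21.7% and 6.52%). Others not shown had more falls, such as the cytoskeleton list (14.7% higher, 35.3% lower).

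Fewer rises were counted with arrays centred on their medians, where the median change of all genes was -0.07. Then 1 gene rose in each of the other P450, acetaminophen oxidation, NF-kB, interferon, complement, metal and oxidative phosphorylation lists and 2 in each of the bile acid, ribosome biogenesis and cytoskeleton lists, while 0 rose in limma in the lists of other amino acids, coagulation and hydrolases. With the β-actin ratio as a covariate 1 other P450 gene, 4 oxidative phosphorylation genes and 3 ribosome biogenesis genes rose.

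ATF4 pathway genes were lower in part. ATF4 is the transcription factor made when amino acids run short or proteins misfold, and with partners such as CHOP it induces amino acid synthesis, import and tRNA charging. In the ATF4 and CHOP list 17 of 33 fell and 4 rose (median -0.25), and of the tRNA synthetases 8 of 19 fell and 0 rose (0 also at an unadjusted p under 0.05 in limma). When the probe sets of each gene were averaged 5 synthetases fell. Aldh1l2, of mitochondrial folate metabolism, fell (-1.25 ± 0.11), Fgf21, a fasting hormone, (-1.02 ± 0.15), Atf5 (-0.73 ± 0.12) and Trib3, a pseudokinase that ATF4 and CHOP induce, (-0.58 ± 0.15). The serine and folate enzymes Mthfd2 (-0.55 ± 0.15), Shmt2 (-0.44 ± 0.08), Phgdh (-0.43 ± 0.09) and Psat1 (-0.38 ± 0.06) and the synthetases Lars1 (-0.62 ± 0.10), Iars1 (-0.60 ± 0.08), Tars1 (-0.60 ± 0.09) and Aars1 (-0.31 ± 0.07) fell.

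In the opposite direction Gdf15, a stress-induced cytokine, had 839.9, 1069.5, 1198, 1324 and 1276 at 5000 µM and 486, 608, 489.7, 475 and 395 in vehicle (1.21 ± 0.15), with the groups apart. Ddit4, which restrains the growth kinase mTOR (0.44 ± 0.09), and Nupr1 (0.34 ± 0.07) rose too. Ddit3, which encodes CHOP, had 5370.4 ± 695 at 5000 µM and 4419 ± 324 in vehicle (SD, n = 5 each), and its rise of 0.28 ± 0.08 was lost after median centring and with the β-actin ratio as a covariate. Among chaperones and folding enzymes of the endoplasmic reticulum 13 of 44 fell and 3 rose, or 6 without 5000 µM replicate 2 and 0 after median centring (median -0.08). Eif2ak3, the sensor kinase PERK that acts on ATF4 synthesis, fell (-0.53 ± 0.11), and Creld2 (-0.42 ± 0.08), Manf (-0.33 ± 0.06) and Pdia4 (-0.31 ± 0.07) fell beside it.

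The promoters of genes in these lists were searched for the C/EBP-ATF response element, the site to which ATF4 binds with a C/EBP partner, written TGATGNAAN and read on both strands from 250 bases before to 50 after each start site of the RefSeq annotation (GRCr8). The letters occurred in 3.97% of all 33469 promoters. They occurred in 6 of the 28 promoters matched for tested members of the ATF4 and CHOP list (21.4%), 5 of them among 14 members that fell and the sixth in Nupr1, which rose, and in 7 of 17 promoters of tRNA synthetases (41.2%), 4 of them among 7 that fell and 3 among 10 not called. Inhbe, which is in neither list, holds a match as well. The promoters below are examples from genes that fell. They are given from 5′ to 3′ on the gene's strand, with the matched letters in capitals. Slc7a1, a cationic amino acid carrier that fell on its brightest probe set (-1.17 ± 0.11) and by less on a second (-0.41 ± 0.10, limma adjusted p = 0.00326 over all probe sets), also holds a match and is not shown. A match is a description of the letters and not a measured site.
Inhbe (chr7:65064470-65064769, minus strand): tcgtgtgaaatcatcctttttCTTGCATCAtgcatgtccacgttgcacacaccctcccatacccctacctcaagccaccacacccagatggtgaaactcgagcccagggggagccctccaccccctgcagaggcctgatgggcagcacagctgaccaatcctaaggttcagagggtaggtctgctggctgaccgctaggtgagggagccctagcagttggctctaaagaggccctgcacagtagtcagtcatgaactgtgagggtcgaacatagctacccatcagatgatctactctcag
Fgf21 (chr1:105221327-105221626, minus strand): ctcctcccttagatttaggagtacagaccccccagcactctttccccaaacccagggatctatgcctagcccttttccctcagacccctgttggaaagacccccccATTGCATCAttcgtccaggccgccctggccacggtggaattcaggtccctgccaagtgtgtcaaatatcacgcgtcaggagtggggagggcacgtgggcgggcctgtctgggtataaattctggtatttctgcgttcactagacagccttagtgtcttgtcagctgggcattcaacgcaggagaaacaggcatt
Trib3 (chr3:161275484-161275783, minus strand): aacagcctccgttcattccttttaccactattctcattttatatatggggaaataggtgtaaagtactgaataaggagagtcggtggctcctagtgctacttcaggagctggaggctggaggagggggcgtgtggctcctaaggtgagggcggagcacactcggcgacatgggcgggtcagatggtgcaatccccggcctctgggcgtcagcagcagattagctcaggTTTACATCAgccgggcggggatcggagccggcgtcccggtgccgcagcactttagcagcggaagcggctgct
Iars1 (chr17:15193603-15193902, minus strand): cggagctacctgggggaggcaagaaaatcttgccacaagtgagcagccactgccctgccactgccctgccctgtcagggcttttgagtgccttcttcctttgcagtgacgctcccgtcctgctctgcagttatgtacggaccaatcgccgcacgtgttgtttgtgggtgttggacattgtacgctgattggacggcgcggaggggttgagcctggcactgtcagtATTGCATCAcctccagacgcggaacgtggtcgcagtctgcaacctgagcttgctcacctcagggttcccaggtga
Tars1 (chr2:62114753-62115052, minus strand): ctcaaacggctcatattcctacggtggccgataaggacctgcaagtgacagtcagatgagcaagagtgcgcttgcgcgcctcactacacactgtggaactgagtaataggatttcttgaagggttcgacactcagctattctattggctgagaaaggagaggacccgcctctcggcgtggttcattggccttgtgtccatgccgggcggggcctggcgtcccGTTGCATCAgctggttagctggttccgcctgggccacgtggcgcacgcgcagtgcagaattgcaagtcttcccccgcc
The match began 229 bases before the start site in Inhbe, 144 in Fgf21, 22 in Trib3, 25 in Iars1 and 28 in Tars1.

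Genes of the DNA damage response and of cell death changed in both directions. Of 24 p53 targets 9 rose and 4 fell, while 5 rose after median centring and 5 with the β-actin ratio as a covariate. Ccng2 (0.62 ± 0.11), Phlda3 (0.57 ± 0.10), Gadd45b (0.53 ± 0.08) and Pidd1 (0.50 ± 0.12) rose. Cdkn1a, the p21 inhibitor of the cell cycle, had 5292 ± 896 at 5000 µM and 6851 ± 785 in vehicle (SD, n = 5 each), and its fall (-0.38 ± 0.14) was lost with the β-actin ratio as a covariate and without vehicle replicate 1 or 2 or any 5000 µM replicate other than 1. These values are of its brightest probe set. A second Cdkn1a probe set was at 0.20 ± 0.10 (limma adjusted p = 0.199 over all probe sets), so the probe sets differ in sign. Of 32 cell death genes 7 rose and 3 fell, and 4 rose after median centring. Casp6, an executioner caspase (0.62 ± 0.10), and Diablo, which frees caspases from their inhibitors (0.44 ± 0.07), rose. Pcna (0.68 ± 0.06) and Cdk2 (0.66 ± 0.14), of DNA replication, rose and thymidine kinase Tk1 fell (-0.38 ± 0.09).

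Heat shock genes rose in 8 of 35 cases and fell in 3, and 2 rose after median centring. Hspa1a, the main inducible heat shock protein, had 2617 ± 386 at 5000 µM and 2252 ± 290.4 in vehicle (SD, n = 5 each), a change of 0.21 ± 0.09 that did not pass. Dnaja4, a co-chaperone, rose by 0.34 ± 0.07. Of 24 early response genes 5 rose and 5 fell (20.8% each), near the shares of all genes, 18.6% and 19.6%. Counts under the alternatives are not given for this list. Egr1 (0.54 ± 0.11) and Id2 (0.63 ± 0.10) rose, while Myc fell (-0.69 ± 0.09). A second Id2 probe set rose less (0.32 ± 0.11, limma adjusted p = 0.0498 over all probe sets).

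Innate immune genes were lower in part. Of 27 interferon-induced and antigen presentation genes 8 fell and 3 rose (median -0.16), and of 24 NF-kB and inflammatory genes 10 fell and 3 rose, or 1 without vehicle replicate 5 (median -0.18). The antiviral genes Mx2 (-1.17 ± 0.20), Rsad2 (-1.01 ± 0.18), Oas1a (-0.85 ± 0.12), Ifit2 (-0.71 ± 0.08), Oasl (-0.55 ± 0.15) and Isg15 (-0.61 ± 0.18) fell. Irf7, a transcription factor that interferon induces too, rose (0.45 ± 0.10). The adhesion molecule Icam1 (-0.73 ± 0.13), the NF-kB inhibitor Tnfaip3 (-0.50 ± 0.08) and the TNF receptor Tnfrsf1a (-0.41 ± 0.10) fell, while Nfkbia, another inhibitor of NF-kB, rose (0.38 ± 0.06).

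The interferon-stimulated response element, searched as GAAA NN GAAA (without the spaces) on both strands of the same windows, occurred in 3.92% of all promoters and in 15 of the 22 matched for tested members of the interferon list (68.2%). Of these 4 were among 5 members that fell and 9 among 14 that were not called, and the others lie in Irf7 (0.45 ± 0.10) and Ifi44 (0.34 ± 0.10), which rose, although the call of Ifi44 was lost after median centring. The promoters of Rsad2 and Oas1a are shown because they had the largest falls among members that hold a match.
Rsad2 (chr6:48788071-48788370, minus strand): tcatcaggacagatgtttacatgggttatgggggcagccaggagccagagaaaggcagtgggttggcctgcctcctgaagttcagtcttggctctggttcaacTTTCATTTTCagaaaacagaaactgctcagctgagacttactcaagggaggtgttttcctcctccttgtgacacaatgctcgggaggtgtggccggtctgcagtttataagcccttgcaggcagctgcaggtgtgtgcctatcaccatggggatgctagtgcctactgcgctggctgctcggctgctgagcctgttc
Oas1a (chr12:41330216-41330515, plus strand): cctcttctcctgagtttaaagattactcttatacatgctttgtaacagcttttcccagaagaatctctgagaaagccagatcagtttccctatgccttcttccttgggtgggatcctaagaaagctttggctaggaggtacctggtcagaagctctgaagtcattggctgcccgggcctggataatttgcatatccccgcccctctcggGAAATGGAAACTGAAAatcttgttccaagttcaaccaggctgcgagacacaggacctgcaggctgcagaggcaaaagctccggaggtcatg
The match began 147 bases before the start site in Rsad2. The Oas1a promoter holds overlapping matches that began 41 and 35 bases before it.

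Plasma protein genes fell in part. Of 32 complement and acute phase genes 18 fell and 2 rose (median -0.25), with C1s (-0.74 ± 0.06), C1r (-0.66 ± 0.08), Crp (-0.57 ± 0.12), Mbl1 (-0.57 ± 0.09), C8a (-0.55 ± 0.09) and C3 (-0.31 ± 0.07) among the falls and Hamp among the rises. Of 21 coagulation genes 9 fell and 1 rose. Klkb1, plasma prekallikrein, read 2198, 2135, 1697, 1329.6 and 1959.6 at 5000 µM and 4742, 5128, 5374, 5138 and 4783 in vehicle (-1.45 ± 0.15), far more than F10 (-0.59 ± 0.07), F5 (-0.57 ± 0.11) and Hrg (-0.62 ± 0.10). Serpina6, which carries corticosteroids in plasma, rose (0.80 ± 0.19). Around hepcidin, Bmp2, a ligand that induces it, rose (0.44 ± 0.12), and the transferrin receptors Tfrc (-0.38 ± 0.09) and Tfr2 (-0.39 ± 0.10) fell.

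Growth hormone-dependent and male-biased genes, liver transcription factors and clock genes gave single changes of note. Hsd3b5, a steroid reductase of male rat liver, gave 2946, 2482, 3167, 1607 and 2404 at 5000 µM and 6671, 13035, 11387, 10463 and 10135 in vehicle (-2.04 ± 0.15). Its groups did not overlap, and the estradiol-oxidising Hsd17b2 fell too (-1.17 ± 0.16), while Igfbp2 rose (0.55 ± 0.14). Onecut2 rose (0.89 ± 0.09) and Zhx2, a repressor of fetal liver genes, fell (-0.63 ± 0.11). Hnf4a, the central hepatocyte transcription factor, had 13313 ± 2111 at 5000 µM and 15326 ± 1540.4 in vehicle (SD, n = 5 each) and did not pass (-0.21 ± 0.10). The clock factor Npas2 fell (-0.83 ± 0.10) and Hlf, a clock output gene, rose (0.43 ± 0.11). Adm, adrenomedullin, rose by 0.96 ± 0.12.

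Genes of the cytoskeleton were lower in 12 of 34 cases and higher in 5. Vim, vimentin (-0.91 ± 0.12), Tagln2 (-0.94 ± 0.11), non-muscle myosin Myh9 (-0.64 ± 0.11), ezrin Ezr (-0.55 ± 0.08) and Ajuba (-0.82 ± 0.11) fell, beside the calcium-binding S100a6 (-1.05 ± 0.12) and the annexin Anxa8 (-1.21 ± 0.22). Gelsolin Gsn (0.67 ± 0.12) and the profilin Pfn2 (0.75 ± 0.09) rose. Vim is also expressed by non-parenchymal cells.

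Ribosome biogenesis genes fell in 24 of 61 cases and rose in 7, or 4 without vehicle replicate 1 or 5000 µM replicate 3 (median -0.14). Polr1b, of RNA polymerase I (-0.70 ± 0.14), its initiation factor Rrn3 (-0.46 ± 0.07), Heatr1 (-0.61 ± 0.14) and Rrs1 (-0.55 ± 0.11) fell. Of 38 cytosolic ribosomal protein genes 0 passed in limma (median 0.04), with 3 higher and 0 lower at an unadjusted p under 0.05. Without vehicle replicate 3, 3 of them were called higher. Oxidative phosphorylation genes rose in 9 and fell in 12 of 67 cases, where the shares of all genes were 18.6% and 19.6%.

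Mitochondrial ribosome genes rose in 22 and fell in 10 of 71 cases, and 7 rose and 7 fell after median centring, while 6 fell without 5000 µM replicate 2. Mrps6 (0.76 ± 0.07) and Mrpl49 (0.51 ± 0.06) had the largest of these rises. Of 46 lysosome and autophagy genes 10 rose and 3 fell, or 6 and 5 after median centring, with the sialidase Neu1 (0.46 ± 0.09), the autophagy conjugation protein Atg12 (0.40 ± 0.06) and the cholesterol carrier Npc2 (0.37 ± 0.05) among the rises. Genes of zinc and metal handling fell in 7 of 19 cases and rose in 2, among them the metal importer Slc39a8 (-0.46 ± 0.07) and the manganese exporter Slc30a10 (-0.46 ± 0.10). Of 39 proteasome genes 7 rose and 2 fell, and 1 rose after median centring and 3 or 4 without vehicle replicate 1 or 5000 µM replicate 3 or 5. Psmd10, an assembly chaperone of the proteasome, rose by 0.80 ± 0.07.

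Markers of the hepatocyte were not called. Of 11 tested, 0 passed in limma, while 2 were lower and 0 higher at an unadjusted p under 0.05. Without vehicle replicate 1, 2 or 5 or 5000 µM replicate 1 or 4, 1 was called lower. Their summed signal was 496038 to 566315 at 5000 µM and 494785 to 622130 in vehicle. Alb, albumin, had 50915 ± 5088 at 5000 µM and 47306 ± 7662 in vehicle (SD, n = 5 each; 0.12 ± 0.12). The ranges of the summed signal thus overlapped. Because each array was scaled to one target, these levels cannot show whether the number of hepatocytes changed. Cps1 is one of these markers, and its second probe set fell (-0.73 ± 0.08). Of 23 markers of Kupffer cells and leukocytes on the array 3 were bright enough to be tested, and their summed signal over all 23 was 22866 to 25823 at 5000 µM and 26457 to 33546 in vehicle. For 22 stellate cell and fibroblast markers, 4 tested, the sum was 36637 to 44297 at 5000 µM and 47497 to 53981 in vehicle. Endothelial markers, 3 of 19 tested, summed to 3864 to 4801 at 5000 µM and 4219 to 5739 in vehicle. Of the defining markers of these cells, Ptprc was dim at 137 ± 50.6 at 5000 µM and 156 ± 66.2 in vehicle, Pecam1 at 132 ± 46.8 at 5000 µM and 151 ± 67.6 in vehicle, and Pdgfrb at 73.4 ± 33.5 at 5000 µM and 101 ± 50.6 in vehicle (SD, n = 5 each). Other dim markers had higher means at 5000 µM than in vehicle. Examples are Clec4f (310 ± 83.0 and 231.5 ± 37.7), Lyve1 (232 ± 59.5 and 193 ± 70.1) and Col1a1 (361 ± 22.5 and 335.5 ± 75.7). None of these dim markers was bright enough to be tested. Lyz2, Cd68, Col3a1 and Kdr were bright enough to be tested and were not called. Of the 3 tested Kupffer cell and leukocyte markers 1 was called lower (-0.54), and of the 3 endothelial ones 0 were called. With p adjusted over all probe sets in limma, 1 Kupffer cell, 2 stellate and 2 endothelial markers on the array were lower. By that count 0 markers of these cells were higher. Of 15 cholangiocyte markers on the array, 5 of them tested, 1 was higher and 2 were lower by the same count. Their summed signal was 20941.5 to 22672 at 5000 µM and 21824 to 23547.5 in vehicle. The lysozyme gene Lyz2 had 6981 ± 425 at 5000 µM and 7365 ± 921 in vehicle, Cd68 942 ± 138 at 5000 µM and 847 ± 217 in vehicle, the collagen gene Col3a1 505 ± 25.2 at 5000 µM and 625 ± 46.3 in vehicle, and Kdr 496 ± 59.0 at 5000 µM and 527 ± 107 in vehicle (SD, n = 5 each). The groups did not overlap for Col3a1, which was called lower after median centring or quantile normalization, and all 4 tested stellate markers were called lower after median centring, against 1 without it. The Kupffer and stellate sums were lower at 5000 µM without overlap. Most of each sum came from its few tested markers. These summed to 18833 to 21672 for Kupffer cells and 33746 to 41558 for stellate cells at 5000 µM. In vehicle they summed to 21741 to 29801 and 43959 to 49984. The sums thus follow a few bright genes and are no measure of cell number. The part of these cells in the falls of interferon, NF-kB and Vim genes was not tested.

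Set directly against 500 µM at 24 h, the 5000 µM wells differed in 2659 genes (31.2%), of which 1437 were higher (16.8%) and 1222 lower (14.3%) at 5000 µM, or 592 higher and 1224 lower after median centring. By at least 2-fold 21 were higher (0.246%) and 67 lower (0.785%). Of the 3252 genes called against vehicle 2120 (24.9% of all tested) also differed from 500 µM in the same direction. Both comparisons use the same arrays at 5000 µM, so agreement between them is not independent. Inhbe was at -2.77 ± 0.12, Hexim1 at 1.45 ± 0.09, Sult2a6 at -2.61 ± 0.23, Hsd3b5 at -2.29 ± 0.15 and Cyp7a1 at -2.08 ± 0.19 in this comparison, each close to or beyond its difference from vehicle. Serpine2 (0.67 ± 0.10), Gucy2c (-1.19 ± 0.10) and Pdk4 (0.47 ± 0.08) had smaller differences between doses, beside changes at 500 µM against vehicle of 0.91 ± 0.10, -0.76 ± 0.10 and 0.84 ± 0.08. In the aromatic amino acid and histidine list 18 genes were lower at 5000 than at 500 µM, and 0 were called in limma at 500 µM against vehicle, where 4 were higher and 3 lower at an unadjusted p under 0.05. In the bile acid list 19 were lower at 5000 than at 500 µM.

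The effect of 5000 µM at 24 h was then set against its effect at 48 h, by the difference of the changes at each time. This difference was called for 1399 genes (16.4%), 739 of them higher (8.66%) and 660 lower (7.74%), and by at least 2-fold 18 were higher (0.211%) and 33 lower (0.387%). It was called for 821 genes with the β-actin ratio as a covariate and for 615, of which 174 higher, after median centring. Of the 3252 genes called at 24 h 930 (10.9% of all tested) differed between times. Of these, 408 rises (4.78%) had a higher change and 431 falls (5.05%) a lower change at 24 h than at 48 h, and 28 rises (0.328%) and 63 falls (0.738%) went further at 48 h. Among the 40 largest changes 22 differed. Both sets of genes were chosen by their change at 24 h, which also enters the difference. That choice alone favours larger changes at 24 h, so these counts do not show that the effect fades. The change of Hao1 was -2.20 ± 0.13 at 24 h and -0.73 ± 0.13 at 48 h (difference -1.47 ± 0.18, limma adjusted p = 7.66e-07). That of Dpys was -1.60 ± 0.10 at 24 h and -0.29 ± 0.10 at 48 h (difference -1.30 ± 0.14). Sult2a6 was at -2.12 ± 0.23 at 24 h and -0.31 ± 0.23 at 48 h (-1.81 ± 0.33), and Gdf15 at 1.21 ± 0.15 at 24 h and 0.34 ± 0.15 at 48 h (0.87 ± 0.22). These 4 changes were smaller at 48 h.

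Other leading changes were of like size at both times, or larger later. Inhbe was at -2.80 ± 0.12 at 48 h, Hexim1 at 1.38 ± 0.09, Hamp at 1.95 ± 0.18 and Angptl4 at 1.06 ± 0.06, and the differences between times, -0.09 ± 0.17, 0.14 ± 0.12, 0.43 ± 0.26 and 0.09 ± 0.09, did not pass the test. Abhd15 rose more at 48 h (1.83 ± 0.17; difference -0.66 ± 0.23). In the aromatic amino acid and histidine list 12 genes had a lower change at 24 h than at 48 h, and in the list of other amino acids 14 did. In both lists 0 had a higher change at 24 h, also at an unadjusted p under 0.05 in limma. In the PPAR-alpha and fatty acid oxidation list 21 had a lower change at 24 h, where 17 rose, than at 48 h, where 33 rose (14.6% of all genes rose at 48 h). Vehicle arrays at 24 and 48 h also differ in the β-actin ratio, with a mean of 1.78 at 24 h and values of 1.09 to 1.34 at 48 h, and its part in these differences was tested only by the fits named above.

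**Figure D5:**
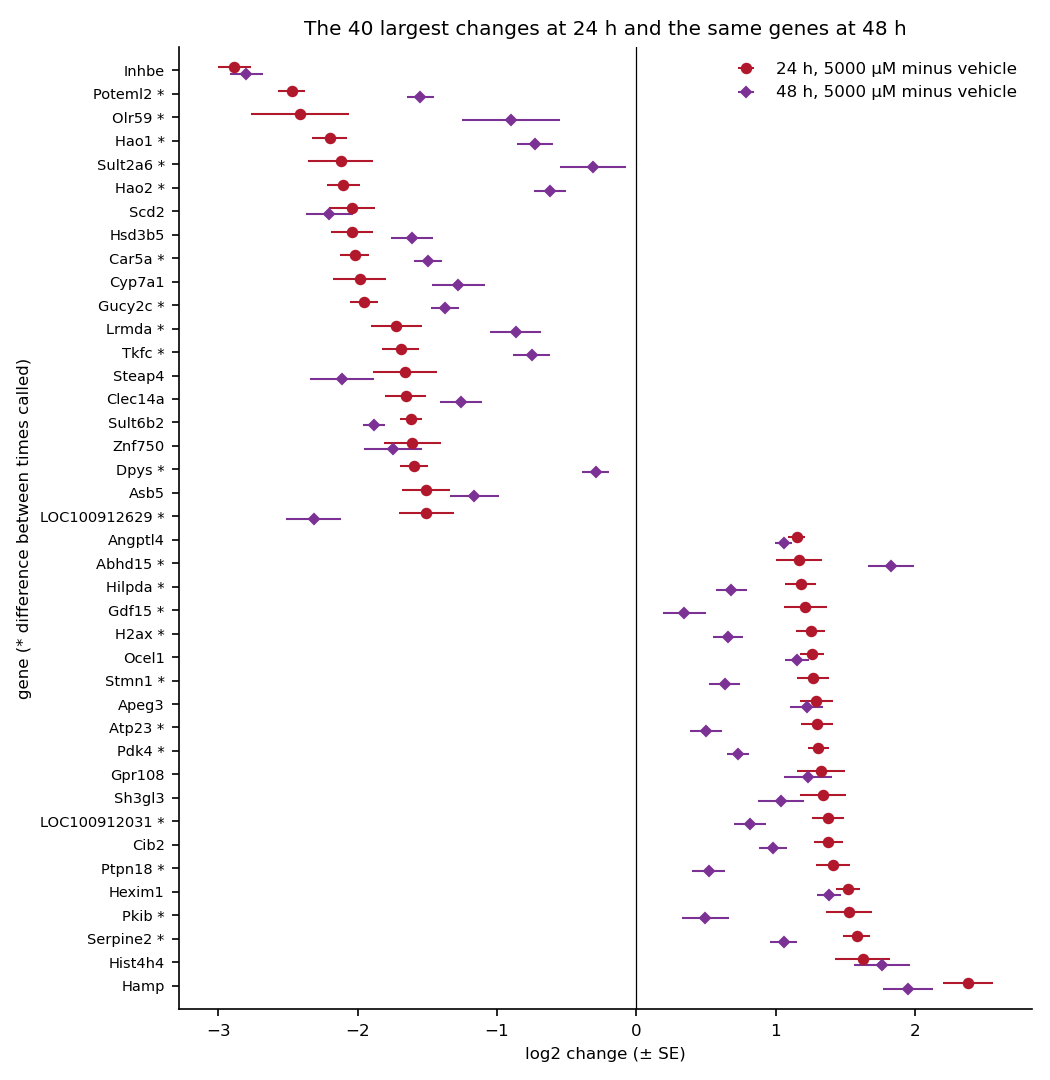
Log2 change of 5000 µM against vehicle (bars ± SE) at 24 h (red circles) and 48 h (purple diamonds) for the 40 largest changes at 24 h, with an asterisk where the difference between times was called. Inhbe, Hexim1 and Angptl4 have nearly the same place at both times, while Hao1, Hao2, Dpys and Sult2a6 lie nearer 0 at 48 h. Choosing genes by their change at 24 h favours larger changes at that time.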

How the data were processed

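RNA of 30 wells was hybridised to 30 single-colour Affymetrix arrays, 5 in each of the 6 groups of dose and time. Sample titles gave the groups. The deposited values are linear signal intensities per probe set made by the authors with MAS5, per the submitters' processing notes, which name no version, and the scaling target is not given either. The 2% trimmed means lay between 1500.55 and 1500.66 on all arrays, so the arrays had been scaled to one target before deposit, and they were analysed as log2 values without another scaling step. The number of arrays, and the signal over background of dim probe sets, limit the precision.

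The table held 31099 probe sets, 57 of them controls. GEO's platform annotation gave 1 symbol for 20826, several for 436 and none for 9780. Symbols were updated through rat RefSeq by Entrez identifier, which matched 20758. Each of 14217 genes was represented by its brightest probe set, and the brightest 60%, 8531 genes, were tested. The dimmest of these had a geometric mean signal of 469.2. A linear model with one mean per group was fitted to the 30 arrays (limma 3.58.1, R 4.3.3; eBayes with an intensity trend, 24 residual degrees of freedom), and p-values were adjusted by Benjamini-Hochberg over all genes tested. The script was tested on simulated data. The β-actin ratio was compared by an exact permutation test (scipy). Promoter sequences are those of RefSeq (GRCr8).

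The comparison, its 53 gene lists and the alternatives were chosen with earlier results of these data known. Genes named are the 20 largest rises and falls among called genes whose groups did not overlap, list members with the largest called changes or that define a list, and a few genes tied to the compound. Mt1, one of these, was not among the tested genes. Wells were not treated as paired. Alternatives were array centring, quantile normalization, only the arrays of the groups compared, other filters on dim genes, the mean of all probe sets, log2 of signal plus 100, robust eBayes, the β-actin ratio as a covariate or split as a block, and leaving out each array. The fit to the arrays below the gap in that ratio and the fit with sets of consecutive title numbers as a block were added after seeing the data.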

Additional observations from a re-analysis of the deposited data

Results flagged for a closer look

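For each gene named in the report the 5 arrays of each group were searched for 1 array apart from the rest, by the gap of the lowest or highest log2 signal to its neighbour as a share of the group's whole range. This share was above Dixon's critical value of 0.71 in 32 of 570 groups of arrays, 14 at 5000 µM and 18 with vehicle, and chance alone gives about 1 in 20 groups. The shares stand in brackets. At 5000 µM replicate 1 was the highest array for Cdkn1a (0.815), Chdh (0.719) and Sqle (0.817). Replicate 1 was the lowest array for Hdac1 (0.898). Replicate 2 was the highest array for Gsn (0.796). Replicate 2 was the lowest array for Aadac (0.717), Apoc4 (0.854), Otc (0.83), Sult2a6 (0.828) and Upb1 (0.746). Replicate 5 was the highest array for Cyp3a18 (0.715). Replicate 5 was the lowest array for Aars1 (0.73), Shmt1 (0.818) and Tagln2 (0.822). With vehicle replicate 1 was the highest array for Ifi44 (0.714). Replicate 1 was the lowest array for Crp (0.83), Eci1 (0.763), Gpx2 (0.829), Khk (0.861), Ocel1 (0.727), Tagln2 (0.752) and Thrsp (0.778). Replicate 2 was the lowest array for Oat (0.795) and Sult6b2 (0.832). Replicate 3 was the highest array for Cps1 (0.726) and Hpd (0.722). Replicate 3 was the lowest array for Hlf (0.8), Slc39a8 (0.897) and Zhx2 (0.81). Replicate 5 was the highest array for Abcc3 (0.896) and Xdh (0.715). Replicate 5 was the lowest array for Ifit2 (0.795). For Hdac1 the separate array at 5000 µM had a signal of 794 and lay within the vehicle range, and the other 4 lay above it.

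The effect of 5000 µM differed between times for 22 of the 40 largest changes, by the interaction in limma. These 40 were ranked by their change at 24 h, which favours larger changes at that time. The log2 change at 24 h minus that at 48 h, in brackets, was above 0 for Serpine2 (0.52), Pkib (1.03), Ptpn18 (0.89), LOC100912031 (0.56), Pdk4 (0.58), Atp23 (0.80), Stmn1 (0.64), H2ax (0.59), Gdf15 (0.87), Hilpda (0.50) and LOC100912629 (0.81). It was below 0 for Abhd15 (-0.66), Poteml2 (-0.92), Olr59 (-1.52), Hao1 (-1.47), Sult2a6 (-1.81), Hao2 (-1.48), Car5a (-0.53), Gucy2c (-0.58), Lrmda (-0.86), Tkfc (-0.94) and Dpys (-1.30). Of these genes LOC100912629 fell further, and Abhd15 rose further, at 48 h.

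Probe sets with no single listed gene were outside the comparisons above. Of 10216 such probe sets 2537 were as bright as the tested genes, and 676 of them (26.6%) were called at 5000 µM against vehicle, 313 higher and 363 lower. Here p was adjusted in limma over all probe sets other than controls. The share is therefore not comparable with the 38.1% of genes, which was adjusted over the 8531 tested. The largest rise was that of 1371959_at, with a mean signal of 7701 ± 734 at 5000 µM and 2329.8 ± 241 in vehicle (SD, n = 5 each, log2 change 1.73 ± 0.08). The largest fall was that of 1383888_at, with 964 ± 83.2 at 5000 µM and 3355 ± 238 in vehicle (log2 change -1.80 ± 0.08).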

How the results depend on the processing

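Title numbers run through the 6 groups in 5 consecutive sets, which the labels do not describe as shared batches. Deviations of same-set arrays from their group means correlated between -0.029 and 0.226 for 5000 µM and vehicle at 24 h, above 0.1 in 3 of 5 sets, and 1 of 5 arrays correlated best with its own set, so the sets were not taken as pairs. For 5000 and 500 µM at 24 h the range was -0.32 to 0.433, with 2 of 5 best. Replicates 1, 2 and 3 of vehicle and of 500 µM at 24 h lay above the gap in the β-actin ratio, and 4 and 5 below. At 5000 µM and 24 h only replicate 1 lay above it. Shared handling within sets was not tested. With the sets as a replicate block, an alternative chosen after seeing the data, 3420 genes were called against vehicle (1661 higher, 1759 lower, 128 at least 2-fold), 2827 against 500 µM and 1634 for the difference between times, and of the named genes Tat and Dbt became called. The count of genes called at 5000 µM against vehicle was within 1.5 times of 3252 under every alternative but the fit to arrays below the gap in the β-actin ratio, and was 2904 to 3379 (1403 to 1596 higher, 1501 to 1783 lower, 123 to 153 changed at least 2-fold) when 1 array was left out. With arrays centred on their medians 809 were higher, with a median over all genes of -0.07. On the arrays below the gap in the β-actin ratio alone, an alternative chosen after seeing the data, the count was 2033 (950 higher, 1083 lower), from fewer samples. The 128 genes changed at least 2-fold became 296 without the filter on dim genes and 73 among the brightest 40%, which change the number of genes tested. For 5000 against 500 µM the count was 2392 to 2626 (1281 to 1375 higher, 1075 to 1251 lower) without 1 array, 592 were higher with centred arrays, and the 88 changed at least 2-fold (83 to 99 without 1 array) became 227 without the filter and 56 among the brightest 40%. The difference between times was called for 1105 to 1725 genes without 1 array (572 to 872 higher, 533 to 853 lower, 48 to 66 at least 2-fold). It was called for 615 (174 higher) with centred arrays, for 821 (433 higher, 388 lower) with the ratio as a covariate, and the 51 of at least 2-fold became 85 without the filter. Where no construction of the alternative is named, the cause was not tested. The GAPDH control probe sets gave a ratio difference of -0.11 (exact permutation p = 0.0397), in the direction of the β-actin ratio. Of 265 named genes that were called, 259 kept direction and call under all the alternatives listed in the methods other than those added, and the exceptions were Cdkn1a, Gclc, Ddit3, Hdac1, Ifi44 and Scd2. Cps1, Tat, Hnf4a, Dbt, Hspa1a and Col3a1, not called, were called under at least 1 of them. Among list counts not given with their single arrays in the report, 2 genes of other amino acids rose without vehicle replicate 1 or 5000 µM replicate 4, 1 cholesterol gene without 5000 µM replicate 1 or vehicle replicate 5, 0 coagulation genes without 5000 µM replicate 4 or vehicle replicate 2, and 0 hydrolases without 5000 µM replicate 2, 3 or 5 or vehicle replicate 1, 2 or 4, while 1 histone-list gene fell without 5000 µM replicate 2. No call of a named gene turned its direction. Dim probe sets near the background limit the size of a change, as for Cyp7a1, Olr59, Sult2a6 and Scd2.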
